A study of Mus musculus with 24 samples.

Results

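The part of the tunicamycin response labelled PERK-dependent here was read from 8 one-colour Agilent arrays, of 24 in the series. The cells were mouse embryonic fibroblasts (MEFs). This part is a difference between cell lines, so loss of PERK and other differences between the lines cannot be told apart in it. PERK, encoded by Eif2ak3, is a kinase in the membrane of the endoplasmic reticulum (ER). The response of PERKKO cells was set against that of wild-type (WT) cells, and the value of interest for each gene was the difference of the responses: PERKKO treated minus PERKKO untreated, minus WT treated minus WT untreated. Each group had 2 arrays: PERKKO with tunicamycin, PERKKO untreated, WT with tunicamycin (replicates 3 and 4) and WT untreated (replicates 3 and 4). These WT arrays were chosen because their data files carry the name of the PERK line, whereas those of the other WT arrays carry that of the Atf4 line; the labels do not say how the PERKKO and WT cells are related. The treated samples are labelled with 12 h of tunicamycin, and the shared protocol gives 2 µg/mL for 12 or 24 h. Untreated PERKKO replicate 2 has a data file named for a 24 h mock treatment. The labels do not say how the lines were made, nor whether replicates came from separate cultures, so each p-value covers array-to-array spread alone, and that spread may be technical.

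Tunicamycin blocks N-glycosylation, so unfolded proteins gather in the ER and set off the unfolded protein response. PERK is 1 of its sensors and phosphorylates the translation factor eIF2α. General translation then falls while ATF4, a transcription factor, is made in larger amounts. ATF4 and its target CHOP (Ddit3) raise genes for amino acid supply, tRNA charging, redox balance and cell death, a programme called the integrated stress response (ISR). The other sensors, IRE1 (Ern1) and ATF6, act through XBP1 and through ATF6 itself and raise chaperones, oxidoreductases and ER-associated degradation.

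Signals are given as log2 of the processed spot signal over the 75th percentile of the array, so that a level of 0 is a signal at that percentile, and responses and differences are log2 differences ± SE. Of 20154 named genes, 14055 were tested because their probe was well above background on both arrays of at least 1 group. Calls were made with limma at a threshold of 0.05 after Benjamini-Hochberg adjustment over all tested genes. The median SD between the 2 arrays of a group was 0.145 in treated and 0.145 in untreated PERKKO cells, and 0.0697 in treated and 0.0842 in untreated WT cells. Across the 8 arrays the 75th percentile was 296 to 408 units of intensity, and the share of probes well above background was 48.0% to 57.0%. The first slide held all 4 WT arrays and 1 PERKKO array of each treatment, and the second slide held the other PERKKO arrays, so slide could be fitted as a block.

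The lines differed before any treatment. Without tunicamycin 7535 genes (53.6%) differed between PERKKO and WT cells, 3123 of them higher in PERKKO. All 14 fibroblast markers tested had signal in both lines, but their summed signal was lower in PERKKO cells, at 7.93 to 7.95 on untreated PERKKO arrays against 10.26 to 10.30 on untreated WT arrays (log2). The summed signal of the 9 epithelial markers was 5.47 to 5.75 on untreated PERKKO arrays and 0.11 to 0.16 on untreated WT arrays, and 1 gene, keratin Krt18, carries most of the PERKKO sum, at 5.43 and 5.71 against -0.74 and -0.65 in untreated WT cells. Of 8 epithelial markers tested 4 were higher and 0 lower in PERKKO cells, treated or untreated. Cdh1 was well above background on both and Krt8 on 1 of 2 untreated PERKKO arrays, and neither was on any WT array. Of 9 skeletal muscle markers 3 were tested, and all 3 were higher in PERKKO cells, with a median of 4.20 treated and 3.95 untreated, while 5 were not well above background on any PERKKO array. Their summed signal was 1.97 to 1.98 on untreated PERKKO arrays and -0.88 to -0.83 on untreated WT arrays. Xist, the RNA that silences an X chromosome, read -0.42 and 0.34 on untreated PERKKO arrays and was not well above background on WT arrays, while the Y-linked Ddx3y read 1.72 and 1.76 on untreated WT arrays and was not well above background in PERKKO (both chosen after their values were seen). The part of these differences between the lines in the results below was not tested. The probe of Eif2ak3 remained well above background on all PERKKO arrays. It read 0.00 and 0.28 in treated and 0.00 and -0.47 in untreated PERKKO cells, against 1.75 and 1.79 in treated and 0.80 and 1.04 in untreated WT cells. Where this probe lies relative to the deleted part is not given in the sources used here, so it does not check the labels.

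The response to tunicamycin was smaller or reversed in PERKKO cells for most of the genes that changed at least 2-fold in WT cells. The difference of responses was called for 2452 genes (17.4% of those tested), 1359 above 0 and 1093 below 0, with 874 and 558 of them at least 2-fold. In PERKKO cells 1040 genes responded (7.4%), 728 up (5.18%) and 312 down (2.22%). In WT cells 4671 genes responded (33.2%), 2549 up (18.1%) and 2122 down (15.1%). With the percentile taken over probes above background on all 8 arrays, the median WT response of all genes shifted by -0.13, and the share of WT calls that were upward was 40.3% in place of 54.6%. At 2-fold or more, 244 genes rose and 80 fell in PERKKO cells, against 723 and 869 in WT cells. With slide as a block the difference was called for 3155 genes, among them 2438 of the 2452. Each slide held 1 PERKKO array per treatment, so the block left the fitted differences of responses unchanged and altered only their spread. Their direction was thus fixed in advance, and the repeated calls are no separate check of it. The slide that holds all 4 groups has 1 PERKKO array per treatment, so the 3534 calls made there rest on the spread of WT arrays alone and are no replicated test of PERKKO cells. Without treated WT replicate 3 or 4 the difference was called for 1160 or 1134 genes, and without untreated WT replicate 3 or 4 for 1158 or 1193. For the PERKKO response, 1478 genes were called with the slide block, but 449 without treated PERKKO replicate 2, 402 without either treated WT array and 447 without either untreated WT array. The WT response was called for 2567 or 2333 genes without treated WT replicate 3 or 4, and for 2389 or 2638 without untreated WT replicate 3 or 4.

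**Figure D1:**
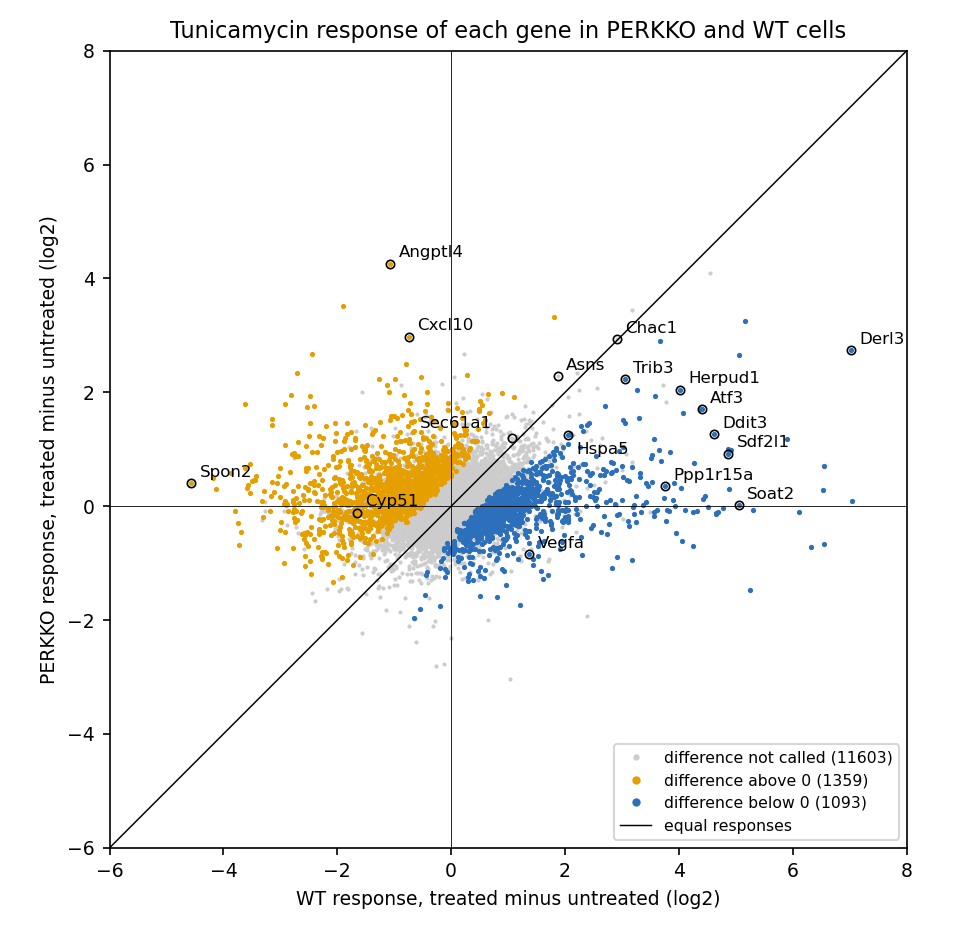
Tunicamycin response of each tested gene in PERKKO cells (y axis, log2) against WT cells (x axis, log2), with 2 arrays per group and lines at 0 and at equal responses. Most of the 1359 genes with a difference above 0 (orange) had fallen in WT cells and most of the 1093 below 0 (blue) had risen there, while Chac1 and Sec61a1 lie near the line of equal responses.

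Of the 723 genes raised at least 2-fold in WT cells, 507 (70.1%) had a smaller response in PERKKO cells, 2 a larger one and 214 no called difference. Without treated WT replicate 4 the 507 became 327. The median change of the 507 was 0.15 in PERKKO and 1.60 in WT cells. Among the 507, 79 still rose in PERKKO cells, 416 had no called change there and 12 fell. Of the 869 genes lowered at least 2-fold in WT cells, 652 had a called difference above 0 and 0 one below 0. The median changes of the 652 were 0.09 in PERKKO and -1.58 in WT cells. Of these 652, 30 fell in PERKKO cells, 553 had no called change and 69 rose. Choosing genes by the WT response uses the same WT arrays as the difference, so these shares are descriptions. Nearest the threshold, Slc35b1 (-0.87, adjusted p = 0.0484, limma) and Tmem74 (-1.49, adjusted p = 0.0486) lay inside it, and Cyfip2 (-0.89, adjusted p = 0.0501) and Slc19a1 (-0.71, adjusted p = 0.0509) outside.

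The level after treatment followed the same order for most, though not all, of the 507 genes. With tunicamycin 430 of them were lower in PERKKO than in WT cells, where 35.6% of all tested genes were. Without tunicamycin 190 were lower and 152 higher in PERKKO cells, against 31.4% and 22.2% of all tested genes. Derl3, a component of ER-associated degradation, shows how the baseline enters. It read 1.62 and 1.65 in treated and -1.04 and -1.17 in untreated PERKKO cells, against 2.53 and 2.34 in treated and -4.55 and -4.63 in untreated WT cells. Treated levels thus differed by -0.80 ± 0.11 and untreated levels by 3.48 ± 0.11, and the difference of responses was -4.29 ± 0.16 (limma, adjusted p = 0.00013).

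Promoter sequences of 5 genes are shown because their responses span the range: Derl3 and the chaperone gene Hspa5 had a reduced rise in PERKKO cells, as did Herpud1, Chchd10 had no called change there and Chac1 no called difference. The sequences are the 200 bases before the RefSeq start, 5′ to 3′ on the gene's strand (build GRCm38.p6, all on the plus strand). Derl3 lies at chr10:75893198-75893397, Hspa5 at chr2:34771890-34772089, Herpud1 at chr8:94386229-94386428, Chchd10 at chr10:75932930-75933129 and Chac1 at chr2:119351042-119351241. Capitals mark matches on either strand to the ER stress response element ERSE (CCAAT and CCACG at a fixed spacing), its variant ERSE-II (ATTGG and CCACG parted by any base), the C/EBP-ATF composite site (TGATGNAA), the UPRE (TGACGTGG) or the CRE (TGACGTCA).
Derl3: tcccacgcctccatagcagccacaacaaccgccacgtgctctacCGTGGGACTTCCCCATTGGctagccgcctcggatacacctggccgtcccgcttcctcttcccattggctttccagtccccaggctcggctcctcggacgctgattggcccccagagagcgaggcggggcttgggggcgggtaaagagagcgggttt
Hspa5: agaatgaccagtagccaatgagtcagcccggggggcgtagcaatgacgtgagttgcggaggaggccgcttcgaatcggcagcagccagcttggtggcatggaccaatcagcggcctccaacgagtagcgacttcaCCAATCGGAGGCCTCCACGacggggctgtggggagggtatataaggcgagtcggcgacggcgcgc
Herpud1: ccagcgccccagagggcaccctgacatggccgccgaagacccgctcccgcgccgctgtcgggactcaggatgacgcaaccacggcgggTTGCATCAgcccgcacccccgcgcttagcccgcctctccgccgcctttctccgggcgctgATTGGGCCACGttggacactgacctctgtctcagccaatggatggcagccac
Chchd10: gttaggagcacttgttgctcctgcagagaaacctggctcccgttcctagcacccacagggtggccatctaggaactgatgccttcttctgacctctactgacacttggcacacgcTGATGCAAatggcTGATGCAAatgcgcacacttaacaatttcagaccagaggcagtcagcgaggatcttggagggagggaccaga
Chac1: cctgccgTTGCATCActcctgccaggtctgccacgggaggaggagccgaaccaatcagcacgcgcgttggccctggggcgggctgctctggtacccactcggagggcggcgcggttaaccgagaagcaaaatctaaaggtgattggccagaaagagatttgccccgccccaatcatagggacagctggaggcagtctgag
The matches are an ERSE at 156 bases before the start of Derl3 and at 65 before that of Hspa5, and an ERSE-II at 52 and a C/EBP-ATF site at 112 before that of Herpud1. Chchd10 has C/EBP-ATF sites at 85 and 72 bases, and Chac1 has such a site at 193 bases. A match is a description of letters and not of binding.

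Over the window from 250 bases before to 50 after the start, the ERSE letters stood in 8 of the 67 promoters (11.9%) of genes whose smaller rise was still called in PERKKO cells: Hspa5, Hsp90b1, Calr, Creld2, Pdia6, Ero1b, Syvn1 and Derl3. They stood in 2 of the 304 promoters (0.658%) of genes with a smaller response and no called change in PERKKO cells, namely Dnajc3 and Alg12, and in 0.161% of the 11183 tested genes matched to a promoter. A further set was 83 promoters of genes raised at least 2-fold in WT cells. Their rise was called in PERKKO cells and their difference was not. The ERSE letters stood in 1 of these 83 promoters (1.20%), that of Canx. The C/EBP-ATF letters stood in 10.4% of the 67, 7.57% of the 304 and 8.43% of the 83 promoters. Among the 83 they stood in those of Asns, Chac1 and Fgf21, among others. Of all tested genes 3.09% had them, as did 4.51% of the 27025 genes with a promoter. The ERSE-II letters were found in 1.49%, 0.987% and 1.20% of the sets in the same order, against 0.0805% of tested genes. The UPRE letters were found in 1.49%, 1.32% and 0% of these sets, against 0.975% of tested genes, and the CRE letters in 0%, 3.62% and 0%, against 3.36%.

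The sensors themselves were affected unevenly. Of the 10 sensor genes tested, 4 had a difference below 0 and 1 above 0, with a median of -0.50, where all tested genes had 7.78% below, 9.67% above and a median of -0.02. These all-gene shares are the base for the lists below too. Without untreated PERKKO replicate 1 the sensor median was -0.31. Atf6 read -0.99 and -0.05 in treated and -0.21 and -0.37 in untreated PERKKO cells, against 1.17 and 1.30 in treated and -0.73 and -0.86 in untreated WT cells. It rose in WT cells only by the test, with a difference of -2.26 ± 0.40 (adjusted p = 0.0128). Ern1 and Mbtps2 (-1.04), which encodes a protease that cleaves ATF6, also had called differences below 0. Xbp1, the transcript that IRE1 splices, read 5.22 and 5.39 in treated and 4.30 and 4.24 in untreated PERKKO cells, against 6.12 and 6.30 in treated and 4.22 and 4.25 in untreated WT cells. Its rise was 2.05-fold in PERKKO and 3.92-fold in WT cells (difference -0.94 ± 0.16, adjusted p = 0.0113). Spliced and unspliced Xbp1 were not distinguished. Eif2ak3 itself had a difference of -0.48 ± 0.27, which was not called (adjusted p = 0.278).

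Among the ISR transcription factors and regulators, CHOP and the eIF2α phosphatase subunit lost most of their rise while ATF4's own transcript did not. Of 19 genes 11 had a difference below 0 and 0 above 0. The list's median response was 0.79 in PERKKO and 1.85 in WT cells, and its median difference -0.82. Ddit3 read 1.91 and 1.78 in treated and 0.56 and 0.59 in untreated PERKKO cells, against 6.24 and 6.23 in treated and 1.63 and 1.62 in untreated WT cells. Both treated PERKKO arrays thus lay near the untreated WT arrays, and the rise was 2.41-fold in PERKKO against 24.4-fold in WT cells (difference -3.34 ± 0.14, adjusted p = 0.000215). Ppp1r15a (GADD34), which directs the phosphatase to eIF2α, read 3.56 and 3.50 in treated and 3.23 and 3.11 in untreated PERKKO cells, against 6.45 and 6.43 in treated and 2.76 and 2.60 in untreated WT cells. Its change in PERKKO cells was not called, and the difference was -3.40 ± 0.15 (adjusted p = 0.000298). Atf3, a stress-induced bZIP factor, read 0.81 and 0.66 in treated and -1.25 and -0.70 in untreated PERKKO cells, against 3.59 and 3.67 in treated and -0.71 and -0.83 in untreated WT cells. It rose in both, 3.28-fold in PERKKO and 21.1-fold in WT cells (difference -2.69 ± 0.26, adjusted p = 0.0018). On the first and the second slide the PERKKO changes were 1.22 and 1.32 for Ddit3, 0.27 and 0.45 for Ppp1r15a and 1.91 and 1.52 for Atf3.

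Gdf15, a stress-induced secreted factor, was well above background on both treated but on neither untreated PERKKO array, and on all WT arrays. It rose 12.8-fold in WT cells. Its PERKKO change, a ratio of at least 1.29-fold, was not called, and the difference of responses was called below 0 (adjusted p = 0.0349). Bounds of this kind set the bright group's mean against the higher of the dim probe's signal and the lowest signal well above background on each array. Sesn2, an inhibitor of mTORC1, and Vldlr, a lipoprotein receptor, had differences of -1.12 and -1.67, and the bZIP genes Cebpb and Cebpg were called too, at -0.63 and -0.98.

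A second group of ISR genes rose by a similar factor in PERKKO and WT cells but from a lower level. Chac1, which degrades glutathione, read 4.09 and 4.33 in treated and 1.07 and 1.48 in untreated PERKKO cells, against 6.59 and 6.65 in treated and 3.81 and 3.59 in untreated WT cells. Its rise was 7.63-fold in PERKKO and 7.56-fold in WT cells, with a difference of 0.01 (95% interval -0.57 to 0.60, adjusted p = 0.978). Asns, asparagine synthetase, read 5.88 and 6.08 in treated and 3.68 and 3.70 in untreated PERKKO cells, against 7.57 and 7.73 in treated and 5.76 and 5.80 in untreated WT cells. The Asns difference was 0.42 (95% interval 0.03 to 0.81, adjusted p = 0.131). Treated PERKKO cells thus reached about the level of untreated WT cells for both genes. Atf4 read 7.85 and 7.95 in treated and 6.56 and 6.76 in untreated PERKKO cells, against 9.07 and 9.14 in treated and 7.60 and 7.65 in untreated WT cells. Its difference was -0.24 (95% interval -0.62 to 0.14, adjusted p = 0.359), while its untreated level was lower in PERKKO cells by -0.96 ± 0.11 (adjusted p = 0.00062). Fgf21, a secreted hormone, and Nupr1, a stress-induced chromatin protein, had differences of -0.45 (95% interval -1.33 to 0.42) and -0.14 (-0.58 to 0.31). Trib3, a pseudokinase induced by CHOP, stood between the groups. It read 3.91 and 3.94 in treated and 1.81 and 1.56 in untreated PERKKO cells, against 7.26 and 7.31 in treated and 4.24 and 4.22 in untreated WT cells, and its difference was -0.82 ± 0.16 (adjusted p = 0.0182). These intervals do not show that the responses were equal.

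**Figure D2:**
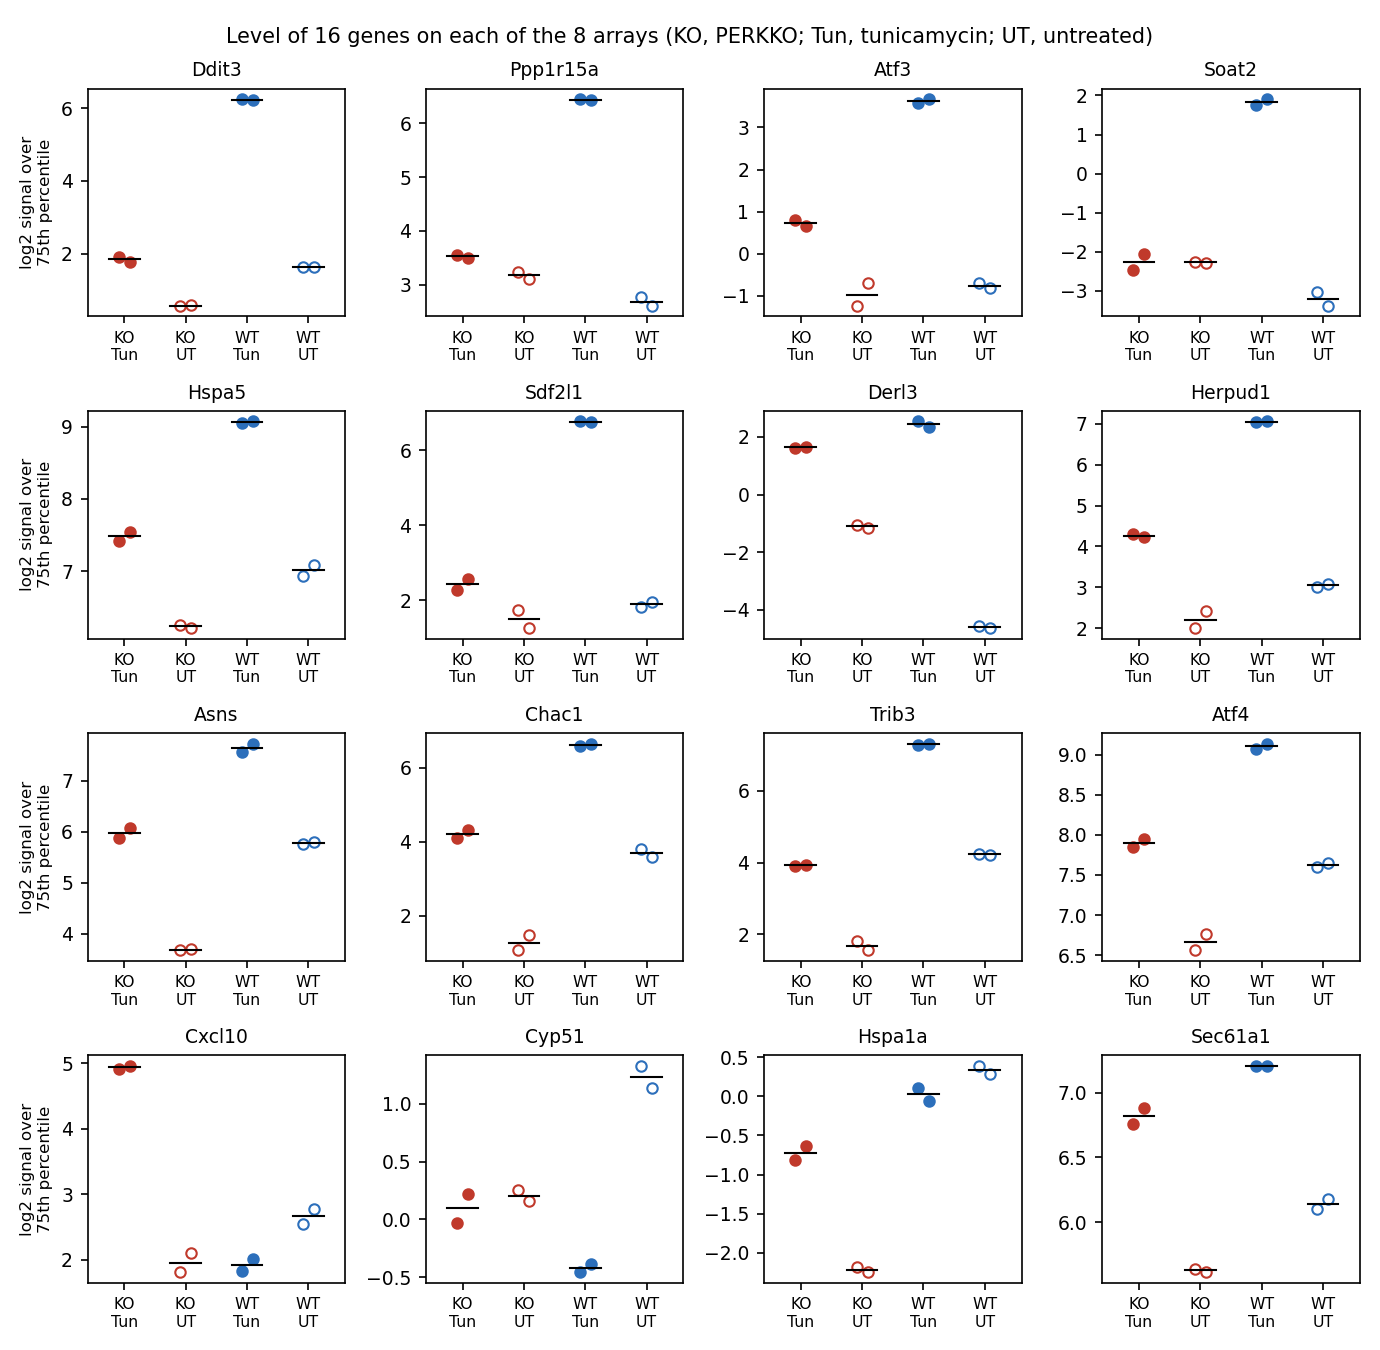
Level of 16 genes on each array, on the log2 scale relative to the 75th percentile, with 2 points and their mean (bar) for treated PERKKO (KO Tun), untreated PERKKO (KO UT), treated WT and untreated WT cells; the y axes differ between genes. Ddit3 and Sdf2l1 in treated PERKKO cells stayed near untreated WT cells, Chac1 and Asns rose in parallel from a lower level, and Cxcl10 rose in PERKKO cells alone.

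Genes of amino acid supply followed the ISR regulators. Of 19 genes of amino acid and one-carbon synthesis 14 had a difference below 0 and 0 above 0, with median responses of 0.57 in PERKKO and 1.65 in WT cells. Cth, the enzyme that makes cysteine from cystathionine, changed 1.32-fold in PERKKO cells and rose 15.0-fold in WT cells (difference -3.50 ± 0.29, adjusted p = 0.00125). The Cth change in PERKKO cells was not called, nor were those of the transaminase gene Got1 (difference -2.06), Shmt1 (-1.58) and Mthfd1l (-1.23), both of folate metabolism. Of 16 amino acid transporter genes 7 had a difference below 0 and 2 above 0. The cationic transporter gene Slc7a3 read -0.24 and -0.01 in treated and -0.12 and -0.42 in untreated PERKKO cells, against 3.42 and 3.54 in treated and -0.32 and -0.19 in untreated WT cells. The lines lay together without tunicamycin and apart with it, and the difference was -3.59 ± 0.21 (adjusted p = 0.00056). Slc7a11, the cystine transporter, was not well above background in untreated cells of either line and rose at least 1.90-fold in PERKKO and at least 30.5-fold in WT cells (adjusted p of the difference 0.00451). Slc38a4 went the other way, with a rise of 1.21 in PERKKO cells and a difference of 1.71.

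Of 19 cytosolic aminoacyl-tRNA synthetase genes, which charge tRNAs with amino acids, 9 had a difference below 0 and 0 above 0. Wars had the largest, -2.27 ± 0.22 (adjusted p = 0.00174). It changed 1.13-fold in PERKKO cells, which was not called, and rose 5.44-fold in WT cells. Sars (-1.07), Vars (-1.01) and Lars (-0.99) were also called. Of the 16 mitochondrial synthetase genes 2 were called below 0 (12.5%, near the 7.78% of all tested genes), Rars2 (-0.89) and Ears2 (-0.88). The list's median difference was -0.17, or -0.04 and -0.26 without treated PERKKO replicate 1 and 2 in turn.

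Chaperones of the ER, usually assigned to the ATF6 and IRE1 branches, also rose less in PERKKO cells. In PERKKO cells 13 of the 18 genes of the list rose and in WT cells all 18, with medians of 0.93 in PERKKO and 1.98 in WT cells, and 12 had a difference below 0 and 0 above 0. Sdf2l1, a partner of BiP, read 2.28 and 2.57 in treated and 1.74 and 1.26 in untreated PERKKO cells, against 6.77 and 6.76 in treated and 1.83 and 1.96 in untreated WT cells (difference -3.95 ± 0.26, adjusted p = 0.000692). Hspa5, which encodes BiP, the main ER chaperone and a regulator of all the sensors, read 7.42 and 7.54 in treated and 6.26 and 6.21 in untreated PERKKO cells, against 9.05 and 9.07 in treated and 6.93 and 7.09 in untreated WT cells. The rise was 2.37-fold in PERKKO and 4.15-fold in WT cells (difference -0.81 ± 0.15, adjusted p = 0.0157). For both genes each treated PERKKO array read below each treated WT array. Hyou1 (-2.66), Creld2 (-2.64) and Dnajc3, an inhibitor of eIF2α kinases (-2.14), had called differences of over 2 log2 units, whereas Canx, calnexin, did not pass (-0.29, 95% interval -0.66 to 0.08).

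The oxidoreductases and prolyl isomerases were split. Of 18 genes 5 had a difference below 0 and 2 above 0, and 12 rose in PERKKO against 13 in WT cells. The ER oxidase gene Ero1a had a difference of -3.15 ± 0.30 (adjusted p = 0.0018) and read 0.33 and 0.60 in treated and 1.00 and 1.64 in untreated PERKKO cells, against 1.73 and 1.65 in treated and -0.57 and -0.64 in untreated WT cells. Ero1b (-2.88), Pdia4 (-2.49) and Txndc11 (-1.41) followed. Fkbp2, a prolyl isomerase, rose 2.24-fold in PERKKO and 2.26-fold in WT cells, with an interval of the difference of -0.38 to 0.35. Of 25 genes of ER-associated degradation 9 had a difference below 0 and 0 above 0, among them Sel1l (-2.82) and Syvn1 (-1.66), which form a ubiquitin ligase in the ER membrane. Herpud1, their cofactor, rose 4.13-fold in PERKKO and 16.1-fold in WT cells (difference -1.97 ± 0.21, adjusted p = 0.00246).

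Genes of protein entry into the ER responded much alike in PERKKO and WT cells. Of 28 genes of translocation and oligosaccharide transfer 19 rose in PERKKO and 22 in WT cells, with medians of 0.85 in PERKKO and 1.03 in WT cells, and only Sec11c (-0.76), Serp1 (-0.72) and Sec62 (0.63) had a called difference. Of the 14 raised at least 2-fold in WT cells, 12 rose in PERKKO cells with no called difference. Sec61a1, the channel subunit, read 6.76 and 6.88 in treated and 5.64 and 5.61 in untreated PERKKO cells, against 7.21 and 7.21 in treated and 6.10 and 6.18 in untreated WT cells. Its difference was 0.13 (95% interval -0.20 to 0.47). Alg5 and Alg2, enzymes of the lipid-linked oligosaccharide, had intervals within 0.5 of 0 as well, and rose 2.83-fold and 2.64-fold in PERKKO cells. In all, 1218 genes had such an interval, of which 73 changed in PERKKO cells. St7l, Slc22a23, Slc9a7, Nradd, Cd47 and St7 complete the 10 with the largest PERKKO rise. Of 26 COPI and COPII genes 2 were called, both below 0 (7.69%, near the 7.78% of all tested genes). They were the cargo receptor subunit gene Mcfd2 and the coat gene Sec23b (-0.62). The list's median difference was 0.02, or -0.02 to 0.04 when single arrays were left out. None of the 25 cytosolic ribosomal protein genes was called by limma, and 0 were called with the slide block, although all 25 differences were below 0 (-0.51 to -0.12).

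**Figure D3:**
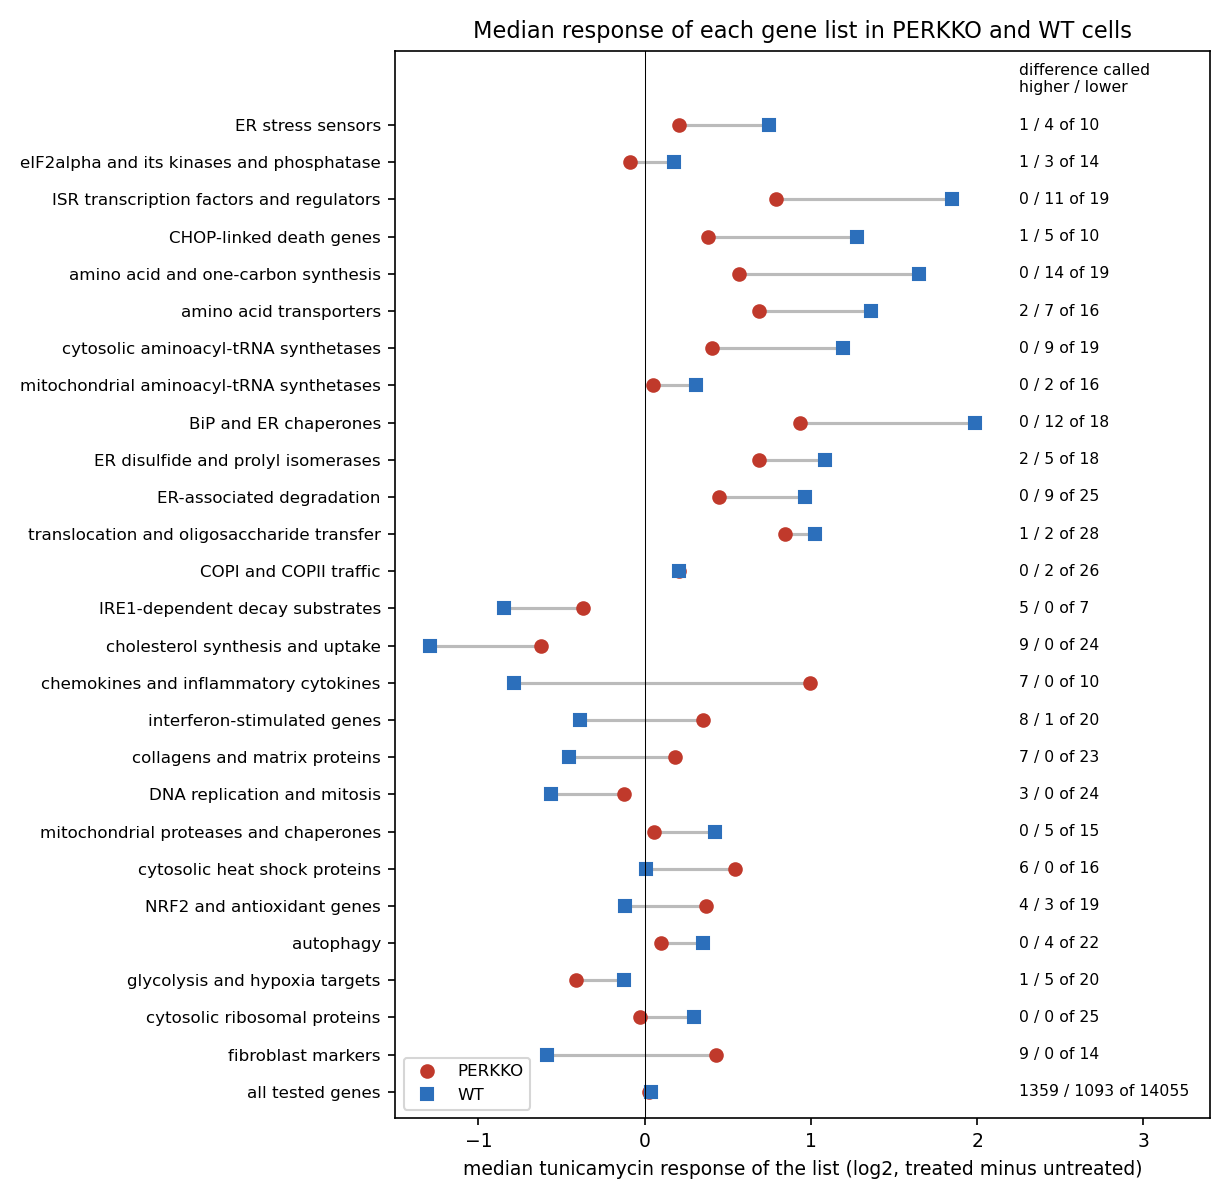
Median tunicamycin response of each gene list (log2, x axis) in PERKKO cells (circles) and WT cells (squares), with the number of genes whose difference was called above and below 0 of those tested at the right. The medians of the ISR, amino acid and chaperone lists lay well apart, those of translocation (0.85 and 1.03) and COPI and COPII traffic close together.

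The largest losses of a rise, among genes well above background on all 8 arrays, were in Soat2, Cdsn, Derl3, Chchd10, Sdf2l1, Angptl6, Ifitm6, Slc7a3, Cth and Ppp1r15a. Soat2, which esterifies cholesterol, read -2.46 and -2.05 in treated and -2.26 and -2.28 in untreated PERKKO cells, against 1.76 and 1.90 in treated and -3.04 and -3.39 in untreated WT cells (difference -5.03 ± 0.25, adjusted p = 0.000394). Cdsn, which encodes the adhesion protein corneodesmosin, had a difference of -4.79, the mitochondrial protein gene Chchd10 of -4.28, and Angptl6, a secreted angiopoietin-like factor, of -3.91. None of these 4 had a called change in PERKKO cells. Among genes below background in part of the arrays, Car6 read 5.16 and 5.25 in treated and -1.22 and -1.47 in untreated WT cells (93.9-fold) and was not well above background on any PERKKO array. Avil, an actin-binding protein gene, was below background in untreated WT cells and in PERKKO cells and rose at least 119-fold in WT cells. Nrip2 and Akr1b7 rose at least 20.5-fold and 14.9-fold in WT cells, and Acox2, a peroxisomal oxidase gene, was above background on 1 of 2 untreated WT arrays and had a difference of -6.24.

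The mitochondrial proteases and chaperones also lost responses: of 15 genes 5 (33.3%, against 7.78% of all tested genes) had a difference below 0 and 0 above 0. The protease gene Lonp1 read 6.22 and 6.43 in treated and 6.58 and 6.43 in untreated PERKKO cells, against 7.20 and 7.29 in treated and 5.35 and 5.41 in untreated WT cells (difference -2.05 ± 0.17, adjusted p = 0.0012). Dnaja3 (-1.32), Hspa9 (-1.08) and Trap1 (-0.93) had called differences too. Of 22 autophagy genes 4 (18.2%, against 7.78% of all tested genes) were below 0: Atg13 (-0.96), the receptor gene Sqstm1 (-0.94), Wipi2 (-0.88) and Gabarapl1 (-0.77). Of 20 glycolysis and hypoxia genes 5 (25%) were below 0 and 1 (5%) above, against 7.78% and 9.67% of all tested genes. Vegfa, the vascular growth factor, fell by 0.84 in PERKKO cells and rose by 1.37 in WT cells (difference -2.21 ± 0.13, adjusted p = 0.00057), and the hexokinase gene Hk2 fell by 1.28 in PERKKO and rose by 1.61 in WT cells (-2.89).

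Genes that tunicamycin lowered in WT cells were less lowered, or raised, in PERKKO cells. Cholesterol synthesis and uptake was an example in which 11 of 24 genes fell in PERKKO cells and 21 in WT cells. A difference above 0 was called for 9 (37.5%, against 9.67% of all tested genes) and below 0 for 0. The fall was not shared by the WT of the Atf4 line, where treatment and slide cannot be told apart. There 8 of the 24 rose and 2 fell, with a median response of 0.43, against -1.29 in the WT cells here. Cyp51, a demethylase of the pathway, read -0.03 and 0.22 in treated and 0.25 and 0.16 in untreated PERKKO cells, against -0.46 and -0.39 in treated and 1.33 and 1.14 in untreated WT cells (difference 1.55 ± 0.18, adjusted p = 0.00323). Its change in PERKKO cells was not called, while it fell in WT cells. Hsd17b7, another enzyme of the pathway, had a difference of 1.42. Of 7 transcripts known as substrates of IRE1-dependent decay 5 (71.4%, against 9.67% of all tested genes) had a difference above 0. Scara3 fell by 1.04 in PERKKO and by 2.57 in WT cells (1.53), and Col6a1 had no called change in PERKKO cells (1.56). Of 24 replication and mitosis genes 1 fell in PERKKO and 14 in WT cells, and 3 (12.5%, near the 9.67% of all tested genes) had a difference above 0: Tk1 (1.41), Mki67 (0.81) and Plk1 (0.75).

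Some chemokine, interferon-stimulated and heat shock genes rose in PERKKO cells. Of 19 genes of the chemokine and cytokine list 10 passed the signal filter, 4 rose in PERKKO and 6 fell in WT cells, and 7 had a difference above 0. Cxcl10 read 4.91 and 4.96 in treated and 1.81 and 2.11 in untreated PERKKO cells, against 1.83 and 2.02 in treated and 2.55 and 2.78 in untreated WT cells. It rose 7.88-fold in PERKKO cells and fell by 0.74 in WT cells (difference 3.72 ± 0.21, adjusted p = 0.000542). Cxcl5 (4.69), Ccl7 (3.06) and Ccl2 (2.51) had called differences but lower levels in untreated PERKKO than in untreated WT cells, by -7.27, -5.29 and -1.72, and Cxcl5 was well above background on 1 of 2 untreated PERKKO arrays. The 2 slides gave unequal PERKKO changes for Ccl2, 1.80 on the first and 0.16 on the second.

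Of 20 interferon-stimulated genes 8 had a difference above 0 and 1 below 0, with 5 raised in PERKKO and 2 in WT cells. Ifit1, an RNA-binding antiviral protein gene, read 0.82 and 1.25 in treated and -1.44 and -1.03 in untreated PERKKO cells, against -1.91 and -1.75 in treated and -1.27 and -1.33 in untreated WT cells (difference 2.80 ± 0.27, adjusted p = 0.00186). Oasl1 (2.42) and Ifit3 (1.75) also had differences above 0, and Ifi44 one below 0 (-1.98). Ifi44 turned to 0.71 (adjusted p = 0.815) when all 4 WT arrays of each treatment entered with a term for scan run. Of 16 cytosolic heat shock genes 7 rose in PERKKO cells and 1 in WT cells, and 6 had a difference above 0. Hspa1a, an inducible HSP70 gene, read -0.82 and -0.63 in treated and -2.18 and -2.25 in untreated PERKKO cells, against 0.11 and -0.06 in treated and 0.39 and 0.28 in untreated WT cells. It rose 2.81-fold in PERKKO cells and yet stayed below both WT groups (difference 1.80 ± 0.17, adjusted p = 0.00165). Hspb1 (1.65), Cryab (1.43) and Hsph1 (1.08) were the next by size.

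Part of the matrix and fibroblast genes had a difference above 0. Of 23 collagen and matrix genes 7 (30.4%) had a difference above 0 and 0 below 0, and of 14 fibroblast markers 9 (64.3%) and 0. Of all tested genes 9.67% were above 0. Col3a1, on both lists, read 2.89 and 3.16 in treated and 1.74 and 1.78 in untreated PERKKO cells, against 3.81 and 3.61 in treated and 5.10 and 5.09 in untreated WT cells (difference 2.65 ± 0.18, adjusted p = 0.000763). S100a4 (2.21) and Pdgfra (2.15) had called differences as well. Fap was below background in treated WT cells and at least 1.68-fold higher in untreated WT cells. The summed fibroblast signal was 8.25 to 8.44 on treated and 7.93 to 7.95 on untreated PERKKO arrays, and 9.47 to 9.48 on treated and 10.26 to 10.30 on untreated WT arrays. It thus moved up in PERKKO and down in WT cells while remaining lower in PERKKO, and less RNA per cell cannot be told apart here from fewer cells of a kind. Of 19 NRF2 and antioxidant genes 4 (21.1%) were above and 3 (15.8%) below 0, against 9.67% and 7.78% of all tested genes. The glutathione transferase genes Gsta4 (2.03) and Gstm1 (1.82) were above, and haem oxygenase Hmox1 (-1.77) was below.

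The largest differences above 0 among genes well above background on all arrays were in Angptl4, Spon2, Penk, Ccn5, Nfatc2, Pthlh, Nrep, Gdf5, Cxcl10 and Tgfbi. Angptl4, an inhibitor of lipoprotein lipase, read 1.85 and 1.96 in treated and -3.30 and -1.41 in untreated PERKKO cells, against -2.44 and -2.16 in treated and -1.26 and -1.19 in untreated WT cells (difference 5.33 ± 0.76, adjusted p = 0.00603). The PERKKO change was 5.26 on the first and 3.26 on the second slide. In Spon2, a secreted matrix protein gene, the difference came from WT cells. It read -0.50 and -0.59 in treated and -0.98 and -0.92 in untreated PERKKO cells, against -3.71 and -3.49 in treated and 1.05 and 0.87 in untreated WT cells (difference 4.97 ± 0.17, adjusted p = 0.00013). Penk (4.69), the enkephalin precursor gene, likewise had no called change in PERKKO cells, whereas Pthlh (4.42), which encodes a parathyroid hormone-related protein, rose by 1.94 in PERKKO and fell by 2.48 in WT cells. Of the 244 genes raised at least 2-fold in PERKKO cells, 117 had a larger response than in WT cells, 99 had no called difference and 28 a smaller response. Of the 117, 82 were lower in untreated PERKKO than in untreated WT cells and 16 higher, against 31.4% and 22.2% of all tested genes, but the same untreated PERKKO arrays chose the 117. The all-gene shares also depend on the scaling, as given above.

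**Figure D4:**
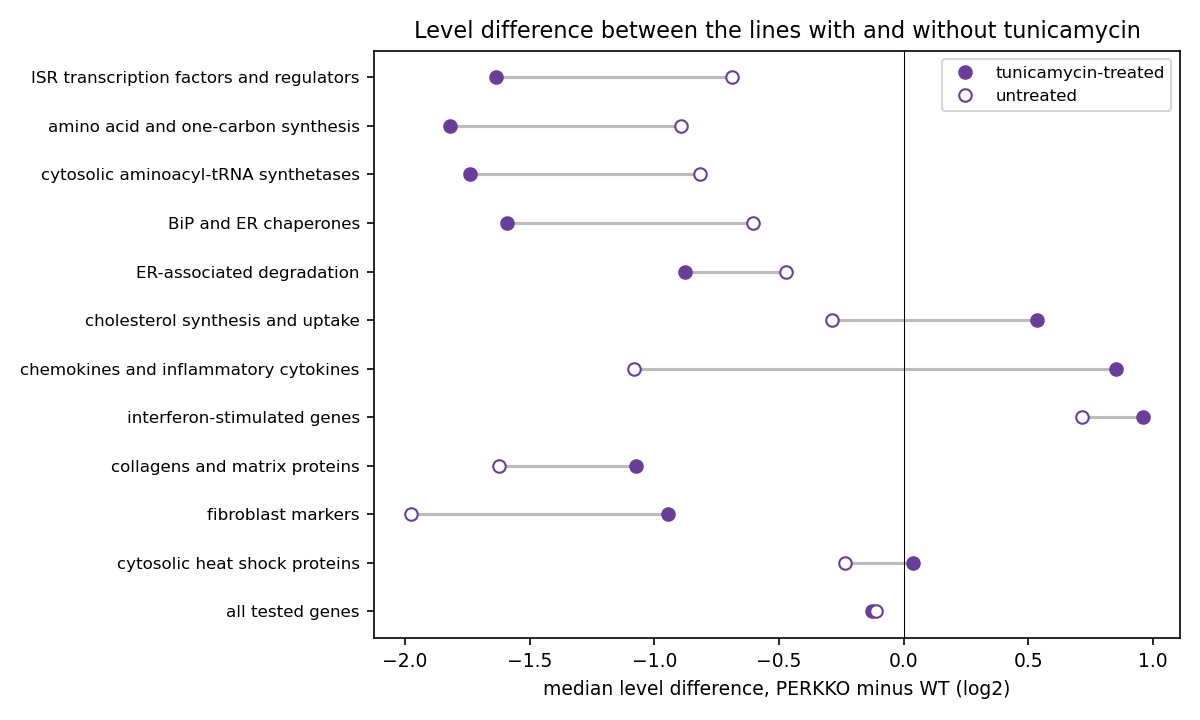
Median difference of level between PERKKO and WT cells (log2, x axis) for 12 gene sets, in tunicamycin-treated cells (filled) and untreated cells (open). The ISR, amino acid, synthetase and chaperone lists were lower in PERKKO cells already untreated and lower still when treated, and the chemokine list had a median of 0.85 treated, with 2 of its 10 genes called higher and 4 lower in PERKKO cells, and of -1.08 untreated.

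The remaining 16 arrays of the series share no array with this comparison and were fitted apart. They hold ATF4KO cells and their own WT, eIF2a A/A cells, an allele known for an eIF2α that cannot be phosphorylated at its regulatory site, and Fv2E-PERK cells, which carry a PERK fusion that a dimerizing compound (AP in the labels) activates without tunicamycin. Of the 507 genes with a smaller rise in PERKKO cells, 383 (75.5%) rose with tunicamycin in the WT of the Atf4 line, against 16.9% of all tested genes. In the Atf4 line all untreated arrays lie on 1 slide and all treated arrays on another, so treatment and slide cannot be told apart in its responses. Their response was smaller in ATF4KO cells than in that WT for 230 (45.4%, against 16.1%). AP raised 90 of them (17.8%, against 1.7%) and lowered 0, and tunicamycin raised 43 (8.48%, against 1.81%) in eIF2a A/A cells. Of the 214 genes with no called PERKKO difference, 70 (32.7%) had a smaller response in ATF4KO cells and 19 (8.88%) rose with AP. In eIF2a A/A cells tunicamycin raised 33 of the 214 (15.4%), a larger share than of the 507. Of the 652 genes lowered in WT cells with a difference above 0, 406 (62.3%) fell in the WT of the Atf4 line, against 14.0% of all tested genes. AP lowered 47 of them (7.21%, against 0.768%).

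Genes that met all 3 conditions, a smaller rise in PERKKO cells, a smaller response in ATF4KO cells and a rise with AP, numbered 66. They were 13.0% of the 507, where 0.619% of all tested genes met the other 2 conditions, and 75.9% of the 87 tested genes that had both a smaller ATF4KO response and a rise with AP, where the 507 were 3.61% of all tested genes. Among them were Ddit3, Ppp1r15a, Atf3, Trib3, Gdf15, Cth, Wars, Sars, Lonp1, Soat2, Cdsn, Chchd10, Angptl6, Car6, Avil, Akr1b7 and Acox2. Soat2 rose by 6.17 ± 0.40 with AP (adjusted p = 4.66e-05) and had an ATF4KO difference of -5.25.

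The gene lists differed in these readouts. Of the 18 ER chaperone genes 12 had a smaller response in PERKKO cells, but 1 had a smaller response in ATF4KO cells and 1 rose with AP. Of all tested genes 7.78%, 16.1% and 1.7% were so called. The fits were not equally precise, with a median SE of 0.204 for the PERKKO difference, 0.346 for the ATF4KO difference and 0.245 for AP. Treated ATF4KO replicate 1 had a 75th percentile of 111 units and 45.5% of probes well above background. Sdf2l1 changed by -0.04 with AP (adjusted p = 0.952) and had an ATF4KO difference of 0.49 (adjusted p = 0.118), and Hspa5 had 0.26 (adjusted p = 0.463) and -0.47 (adjusted p = 0.12). Of the 19 ISR regulators 11 had a smaller response in PERKKO and 14 in ATF4KO cells, and 9 rose with AP. For the 19 amino acid and one-carbon genes the counts were 14, 16 and 6, and for the 19 cytosolic synthetases 9, 16 and 3. Asns and Chac1, which had no called PERKKO difference, had ATF4KO differences of -3.77 and -5.34 and rose with AP by 1.55 and 2.84 (all called). The cholesterol list, with 9 genes above 0 in PERKKO cells, had 22 of 24 below 0 in the ATF4KO difference. These lines have different WT cells and scan runs, and the difference between the PERKKO and ATF4KO readouts was not tested.

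**Figure D5:**
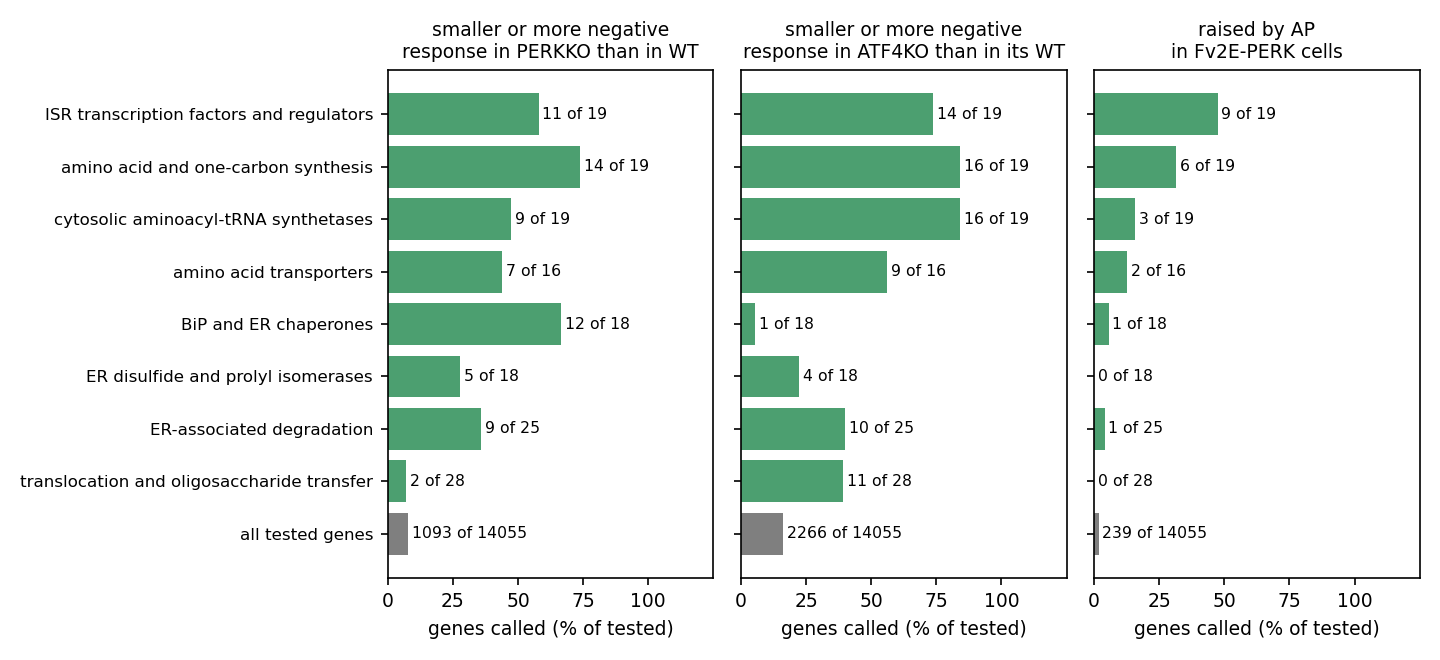
Share of the tested genes of each list (%, x axis) with a smaller or more negative response in PERKKO than in WT cells (left), with a smaller or more negative response in ATF4KO cells than in their own WT (middle) and raised by AP in Fv2E-PERK cells (right), with the counts at the bars and all tested genes in grey. The chaperone list has 12 of 18 in the left panel and 1 of 18 in each of the others.

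Responses in opposite directions were called for 176 genes, of which 137 rose in PERKKO and fell in WT cells and 39 fell in PERKKO and rose in WT cells. Angpt1, the angiopoietin gene, was well above background on 1 of 2 untreated PERKKO arrays and read -2.72 and -2.40 in treated and -4.41 and -4.29 in untreated PERKKO cells, against -3.26 and -3.11 in treated and 0.40 and 0.47 in untreated WT cells. Of the 176, 95 were lower and 48 higher in untreated PERKKO than in untreated WT cells, against 31.4% and 22.2% of all tested genes, with the untreated arrays shared by the choice of the 176. As above, these all-gene shares depend on the scaling. The fall in the WT of the Atf4 line was called for 77 of the 176 (43.8%, against 14.0% of all tested genes) and a rise for 18 (10.2%, against 16.9%), with treatment and slide confounded there.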

How the data were processed

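RNA of mouse embryonic fibroblasts was hybridised to one-colour Agilent arrays. Per the file headers, the deposited intensity values are background-subtracted processed spot signals from Agilent Feature Extraction 10.7.1.1, not normalised between arrays. The authors also deposited a log2 table centred per probe, of which 99.3% of values lay within 0.001 of the scanner values after the same centring, but the baseline of that centring is unknown. Genome build and aligner do not apply to these files.

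Here each log2 signal was scaled to the 75th percentile of its array. The 55681 probes gave 20154 named genes (29050 probes were unnamed), each taken by its brightest probe. Genes were tested if well above background on both arrays of at least 1 of the 4 groups, which left 14055 and set aside 6099. The test was limma 3.58.1 (R 4.3.3, lmFit and eBayes) over the 8 arrays whose data files name the PERK line. It had 4 residual degrees of freedom and was two-sided, with Benjamini-Hochberg adjustment and a threshold of 0.05. The other 16 arrays were fitted separately. The number of arrays, 2 per group, limits the precision. No spot was saturated.

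Named genes were those of fixed ISR and ER stress genes, the largest differences in each direction among genes above background on all 8 arrays, the largest among those partly below background, the 10 largest PERKKO rises with an interval within 0.5 of 0, opposite responders and up to 4 of each list. Any further name was chosen after its values were seen. Some genes that the rule names are not reported here. The members, lists and named genes were chosen with earlier results of these data known. Promoter sequences are from RefSeq (GRCm38.p6), matched by symbol for 11183 of the tested genes.

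Replicate numbers did not pair the arrays: deviations of same-numbered PERKKO arrays correlated at -0.42 and those of same-numbered WT arrays at 0.05. Deviations of PERKKO arrays on the same slide correlated at 0.42. The main fit had no term for slide and used 1 estimate of spread per gene for all 4 groups. Alternatives were normexp (offset 50, on median spot and background signals, since the files hold no mean signal), quantile normalisation, a percentile over detected probes, other filters and probe rules, the authors' log2 values, larger fits, blocks and leaving out each array. The statistics were tested on simulated data.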

Additional observations from a re-analysis of the deposited data

Results flagged for a closer look

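The response to tunicamycin differed between PERKKO and WT cells for 2452 genes by the test of the difference itself (limma), and 176 of them were called in opposite directions. Those with the highest fitted log2 differences of responses include 1700016C15Rik (5.42), Angpt1 (5.41), Omd (5.12), Gprin3 (5.06) and Fam180a (4.77), but each has a group with arrays below background, so these values are not exact and have no order. Of these, 1700016C15Rik was not well above background in untreated PERKKO cells and rose at least 3.21-fold there, while Gprin3 and Fam180a were not well above background in treated WT or in untreated PERKKO cells, and their signal in untreated WT cells was at least 6.11-fold and 1.82-fold that in treated WT cells. Fam180a was not well above background on any PERKKO array, so the direction called for it there has no measured level behind it. Angpt1 and Omd were well above background on 1 of 2 untreated PERKKO arrays.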

How the results depend on the processing

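The difference of responses, called for 2452 genes, was called for 1164 with no filter on dim probes, 1272 with all 24 arrays in the fit, 1429 with a replicate block, and 1134 to 2593 when single arrays were left out. The PERKKO response, called for 1040, was called for 224 with no filter, 506 with all 24 arrays, 338 with all 4 WT arrays per treatment and a run term, 109 with the replicate block, 2199 on the shared slide, where 1 PERKKO array per treatment leaves no PERKKO replicates, and 402 to 946 without single arrays. With the PERKKO numbers crossed in the replicate block, a choice made after seeing the data like that of the shared slide, 2118 differences and 401 PERKKO responses were called. The WT response, called for 4671, was called for 3090 with no filter and 2333 to 5157 without single arrays. Raised genes with a smaller PERKKO response, 507, numbered 336 with no filter and 327 to 503 without single arrays. Lowered ones, 652, numbered 365 with normexp and 376 with all 24 arrays. Of the 507, AP raised 90, or 55 with no filter, and the ATF4KO response was smaller for 230, or 139 with no filter and 139 to 222 without single arrays. The cause of these shifts was not tested. Ifi44 turned to 0.71 and Map2 to -0.44 with all 4 WT arrays and a run term, and Csf1r to -0.16 with the median over probes. Of 115 called genes among the 157 named, 65 were called under every alternative run, and 6 list medians changed sign under some alternative. Of 486 called genes with a further probe above background, 22 had a probe of opposite sign.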
